A study of Mus musculus with 8 samples.

Results

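The miR-297, miR-466, miR-467 and miR-669 families were examined in macrophages grown in culture from the bone marrow of mice. Members were chosen by name alone, as every mature microRNA (miRNA) of the tables whose name carries one of these 4 family numbers, and 80 of the 1907 mature miRNAs did. Marrow came from wild-type mice 8 to 12 weeks old and was cultured for 6 days with supernatant of L929 cells, which release macrophage colony-stimulating factor. The macrophages then either stayed unstimulated (control) or received LPS at 100 ng/ml for 3 h. LPS, from the outer membrane of Gram-negative bacteria, activates macrophages through a Toll-like receptor. Each group had 3 small RNA libraries. The labels name no mouse strain and leave it unsaid if replicate libraries had separate animals or cultures as their source. The spread that the p-values measure is therefore that between libraries, and it may be technical.

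These families are known from a large cluster of miRNA hairpins in an intron of Sfmbt2, a Polycomb-group gene that is expressed from the paternal allele in the early embryo and the placenta. The cluster grew by tandem duplication in rodents, and its miRNAs are best known for their role in placental development. A miRNA hairpin gives 2 mature arms, named 5p and 3p, and bases 2 to 8 of an arm, the seed, largely set which messages it pairs with. Some members have been linked to macrophages: miR-466l to stabilisation of the Il10 message after Toll-like receptor signalling, and miR-467b to repression of lipoprotein lipase.

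Sequences were matched by name in a RefSeq table of the assembly GRCm38.p6, and 8 of the 80 members had one there. They are shown for the UG and CA repeats that they hold. Capitals mark the seed, and each sequence runs 5′ to 3′.
miR-466j: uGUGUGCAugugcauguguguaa
miR-466k: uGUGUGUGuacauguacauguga
miR-467h: aUAAGUGUgugcauguauaugu
miR-669n: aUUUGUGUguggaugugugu
miR-466i-3p: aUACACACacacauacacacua
miR-466q: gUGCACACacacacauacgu
miR-467f: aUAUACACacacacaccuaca
miR-467g: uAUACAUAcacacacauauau
The first 4 hold the letters UGUGUG and the other 4 hold CACACA, which is the reverse complement of UGUGUG. Both motifs were searched in the mature sequences as written. In all 1679 mature miRNAs of the sequence table, 28 (1.67%) hold UGUGUG and 12 (0.71%) hold CACACA. The 8 seeds all differ from each other. One of them, that of miR-467h, is shared with a miRNA of another name, miR-668-5p, which had 0 counts in all 6 libraries. All 8 sequences come from loci outside Sfmbt2, at chr10:60960802-60960824 (plus strand) for miR-466j, chr3:85467396-85467418 (plus) for miR-466k, chr9:115381898-115381919 (plus) for miR-467h, chr3:115979905-115979924 (plus) for miR-669n, chr13:17747552-17747573 (plus) for miR-466i-3p, chr3:28419988-28420007 (plus) for miR-466q, chr11:69635419-69635439 (minus) for miR-467f and chr5:34732872-34732892 (minus) for miR-467g. All 8 had 0 counts in every library.

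The libraries held 3280688 to 4312555 miRNA counts. A count of 0 in a library allows a level of up to 0.696 to 0.914 counts per 1000000 miRNA counts (CPM), which is 3 counts of the library total, and this bound covers counting error only. The macrophage label was checked on 7 miRNAs listed as myeloid: both arms of miR-223 and of miR-142a, miR-22-3p, miR-146a-5p and miR-155-5p. Of these, 6 were detected, with sums of 1105461 to 1320444 counts per library, and miR-142a-3p had 0 counts. Most of each sum was miR-22-3p, at 814208 to 1003198 counts. miR-142a-5p had 196331 to 238828 counts. Erythroid markers summed to 0 to 5 counts, embryonic miR-290 to miR-295 arms to 0 to 8, and 5 markers of neurons, muscle and liver had 0 counts in all libraries. The lymphocyte marker miR-150-5p had 235 to 293 counts, and the part of lymphocytes in the results was not tested.

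The first comparison asked which members are present in macrophages. Of the 80 members, 16 (20%) had at least 1 count in some library, 7 had counts in all 6 libraries, 3 had a single count in 1 library, and 64 had 0 counts throughout. Among the 1827 other miRNAs of the tables, 925 (50.6%) had at least 1 count. The miR-467 family had 3 of 13 names with counts, the miR-669 family 7 of 30, the miR-466 family 5 of 31 and the miR-297 family 1 of 6. In these bulk libraries, fewer cells with a miRNA and less of it per cell cannot be told apart.

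Every detected name lay in the Sfmbt2 cluster. The 80 names matched 82 hairpins by name in the RefSeq gene table of GRCm38.p6, of which 72 lie inside the span of Sfmbt2 on chromosome 2 (chr2:10370440-10595253) and 10 elsewhere. The 72 hairpins span 51.6 kb (chr2:10466663-10518279), and none of the 82 overlaps another annotated miRNA gene. Exon and intron were not read from it, since the table gives gene spans. All 16 detected names belong to the 66 whose hairpins all lie inside the Sfmbt2 span. The 9 names with hairpins only elsewhere had 0 counts, as did the 5 names with hairpins both inside and outside (both arms of miR-297a and the 3 entries of miR-466f). At the share of 16 in 66 seen inside the span, 9 names would give few detected ones. The 0 counts elsewhere therefore do not show that these loci differ from the cluster.

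Within the cluster, the counts were assigned to names of hairpins on its flanks. From Mir467a-1 to Mir467a-10, whose starts lie at 10476346 and 10503273, 34 hairpins follow each other, mostly in the order miR-467, miR-466 and miR-669, with a median step of 2462 bases from one Mir467a copy to the next. No mature name with a single hairpin in this stretch had a count. The names that 2 or more hairpins share were at 0 everywhere. There are 18 of them, among them miR-467a (10 hairpins), miR-669a-5p (12) and miR-466b (8), and 30 of the 34 hairpins of the repeat carry such a name. The 4 others there are Mir669g, Mir669j, Mir466e and Mir467b. Among all members with a single hairpin, 46 of 62 names had 0 counts. The 0 counts of these 4 hairpins therefore do not show that the middle of the cluster differs from its flanks.

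**Figure D1:**
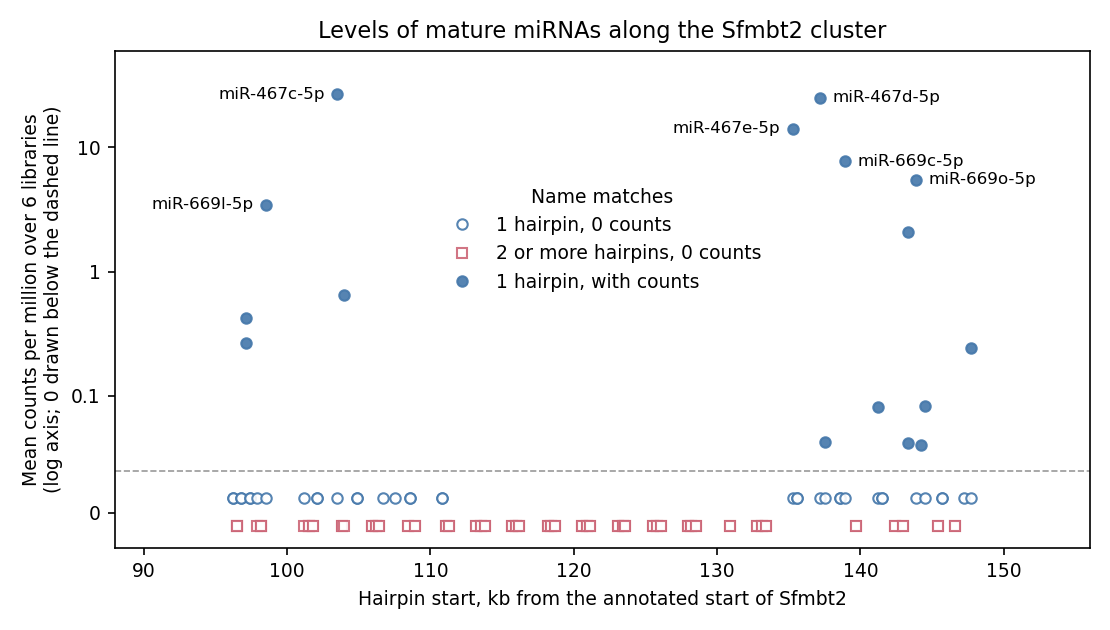
Mean level of each mature miRNA over the 6 libraries (CPM of the library total, log axis, with 0 drawn below the dashed line) against the start of its hairpin in kb from the annotated start of Sfmbt2, 1 symbol per name and hairpin. Filled circles are names of 1 hairpin with counts, open circles names of 1 hairpin at 0, and squares names shared by 2 or more hairpins. The 16 detected names sit between 97.1 and 104.0 kb or between 135.3 and 147.7 kb, and the shared names are all at 0.

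Names were then compared by how many hairpins share them. Among members with a single hairpin, 16 of 62 (25.8%) were detected, and of those with 2 or more hairpins 0 of 18. Among the other miRNAs, 905 of 1761 names with 1 hairpin (51.4%) and 19 of 61 names with 2 or more (31.1%) had a count. At 10 or more counts in some library, the order among the other miRNAs was the opposite, with 375 names of 1 hairpin (21.3%) and 15 names of 2 or more (24.6%). How reads that fit several hairpins were counted is not given in the sources used here. The 0 counts of miR-467a, miR-466b, miR-669a and the other shared names are therefore values of these tables, and their levels in the cells cannot be read from them. Levels of single members are uncertain in the same way where a near-identical member could share their reads.

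Members linked to macrophages in earlier work were among those at 0. miR-466l-5p, miR-466l-3p, miR-467b-5p and miR-467b-3p, each from 1 hairpin, had 0 counts in every library. Over the 3 libraries of a group, 3 counts correspond to 0.245 CPM in controls and 0.264 after LPS, which is the upper limit these 0 counts allow for reads assigned to each name. Mir467b lies within the repeat of Mir467a copies. Whether reads of these arms also fit other hairpins was not tested, so the 0 counts do not show that the arms are absent from the cells.

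The second comparison asked how much the families contribute to the miRNA pool. The members summed to 365, 320 and 384 counts in the control libraries and to 299, 322 and 354 counts after LPS, 2044 counts in all or 0.0087% of the 23613388 counts of the 6 libraries. In CPM of the library total, the sums were 84.6, 81.8 and 95.8 in controls and 91.1, 80.7 and 86.2 after LPS. Their Wilson 95% intervals overlapped in all libraries, from 72.3 to 90.0 in LPS replicate 2 to 86.6 to 106.0 in control replicate 3, and the LPS libraries lay within or just below the control range. The group means were 87.4 ± 7.41 and 86.0 ± 5.2 CPM (SD, n = 3 each), a ratio of 0.984 for LPS over control. On TMM-scaled levels the ratio was 1.02, so its direction depends on the scaling and the difference is smaller than the SD of either group.

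**Figure D2:**
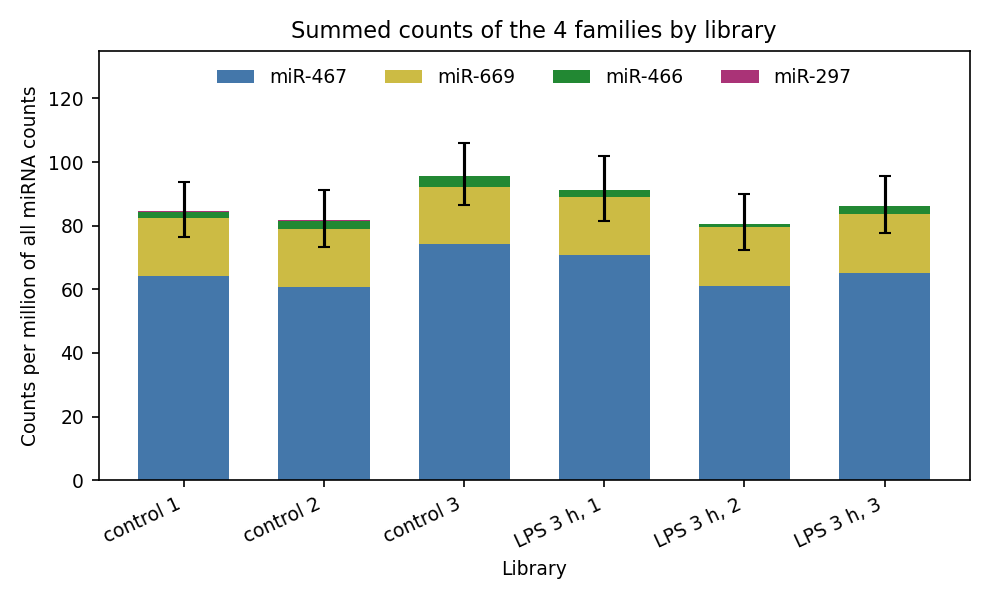
Summed level of the members (CPM of all miRNA counts) in each of the 6 libraries, stacked by family, with the Wilson 95% interval of the total as a bar. Totals run from 80.7 to 95.8 and the miR-467 family makes up 74.4% to 77.6% of each.

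miR-467 made up most of this pool in every library. Its share of the members' counts was 75.97% ± 1.6 in controls and 76.27% ± 1.17 after LPS (SD, n = 3). The miR-669 family followed with 20.77% ± 1.99 and 21.63% ± 1.46, and the miR-466 family with 3.07% ± 0.861 and 2.13% ± 0.810. miR-297 was represented by miR-297b-5p alone, with 1 count in each of 2 control libraries and 0 after LPS. The mean shares of the 3 larger families thus differed between the groups by less than 1 percentage point. For miR-466 that is large beside its share, and its values of 2.19%, 3.12% and 3.91% in controls and 2.34%, 1.24% and 2.82% after LPS overlapped.

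Single members were led by 3 arms of the miR-467 family, which has been linked to repression of thrombospondin 1. Together miR-467c-5p, miR-467d-5p and miR-467e-5p held 76.1% of all members' counts. Levels of single members are CPM of the library size scaled with TMM factors (edgeR's correction for library composition), per mature miRNA and not corrected for length.

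miR-467c-5p comes from the hairpin Mir467c (chr2:10473931-10474027) upstream of the repeat. It had 110, 103 and 113 counts in controls and 98, 102 and 106 after LPS. Its levels were 26.1, 25.0 and 27.4 CPM in controls and 31.0, 25.0 and 26.9 CPM after LPS, and the groups overlapped. It ranked 198 of 1907 by mean level.

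miR-467d-5p (Mir467d, chr2:10507630-10507714) lies downstream of the repeat and was nearly as abundant. Its 98, 88 and 131 control counts and 93, 81 and 98 LPS counts gave 23.3, 21.4 and 31.8 CPM against 29.5, 19.9 and 24.9 CPM. Control replicate 3 was the highest and LPS replicate 2 the lowest, and the groups overlapped. miR-467c-5p was above it in 5 of 6 libraries, but their ranges overlapped and the order between them was not tested.

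miR-467e-5p (Mir467e, chr2:10505721-10505807) had 69, 47 and 54 counts in controls and 41, 61 and 63 after LPS. These are 16.4, 11.4 and 13.1 CPM against 13.0, 15.0 and 16.0 CPM, all below the lowest value of miR-467d-5p, and the groups overlapped.

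Next came 3 arms of the miR-669 family. miR-669c-5p (Mir669c, chr2:10509296-10509404), reported as raised in ageing mouse liver, had 27, 36 and 38 counts in controls and 25, 24 and 33 after LPS, or 6.41, 8.74 and 9.22 CPM against 7.92, 5.88 and 8.38 CPM. miR-669o-5p (Mir669o, chr2:10514300-10514395) had 23, 22 and 15 counts against 13, 31 and 27, or 5.46, 5.34 and 3.64 CPM against 4.12, 7.60 and 6.85 CPM. The groups overlapped for both, and so did the ranges of the 2 miRNAs.

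miR-669l-5p (Mir669l, chr2:10468971-10469068) had 21, 7 and 14 counts in controls and 15, 13 and 11 after LPS, or 4.99, 1.70 and 3.40 CPM against 4.75, 3.19 and 2.79 CPM. Its control replicate 2 was the lowest library and control replicate 1 the highest, so the LPS values fell inside the control range. Its levels overlapped those of miR-669o-5p and of the next member.

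miR-466n-3p (Mir466n, chr2:10513741-10513834) was the one 3p arm found in all 6 libraries, at 8, 8 and 14 counts in controls and 7, 4 and 8 after LPS. Its means were 2.41 ± 0.852 and 1.74 ± 0.666 CPM (SD, n = 3), it did not reach the filter for testing, and the groups overlapped. The other 9 detected members had at most 4 counts in a library. miR-669a-3-3p had 3, 3 and 0 counts in controls and 3, 4 and 2 after LPS. miR-669e-5p had 3, 0 and 2 against 2, 2 and 1 counts, and miR-669e-3p had 1, 2 and 1 against 2, 0 and 0. Counts this low overlap between the groups for each of the 3. The last 6 were miR-669h-5p with 6 counts over all libraries, miR-297b-5p and miR-466h-3p with 2 each, and miR-466a-5p, miR-466n-5p and miR-466g with 1 each.

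**Figure D3:**
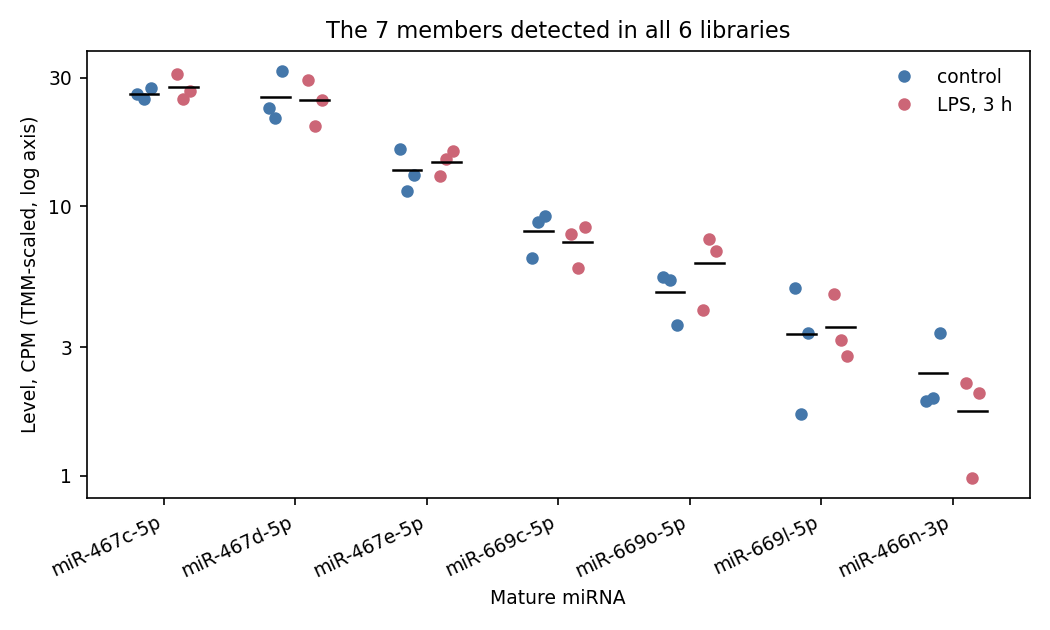
Levels (CPM, TMM-scaled, log axis) of the 7 members with counts in all 6 libraries, 1 point per library, controls in blue and LPS in red, with black lines at the group means. The points of both groups overlap for each of the 7, from miR-467c-5p at 25.0 to 31.0 CPM down to miR-466n-3p at 0.981 to 3.40 CPM.

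The 5p arm carried nearly all counts of these families. Of the counts with an arm in the name, 96.13% ± 0.551 in controls and 96.80% ± 0.755 after LPS were 5p (SD, n = 3), with 8 to 15 counts of 3p arms per library. For 12 pairs of 5p and 3p names of the same stem at least 1 arm had a count, and in 10 the 5p arm was higher. Of the 12 pairs, 7 had 50 or more counts over the 6 libraries, and in 6 of these 7 the 5p arm was higher. The other pairs had too few counts for a firm share. miR-467c had 632 counts of its 5p arm over the 6 libraries and 0 of its 3p arm. This puts the 5p share of the counts assigned to its names at 99.4% or more (exact 95% interval, counting error only). miR-466n was the reverse, with 1 count of 5p and 49 of 3p, a 5p share of 2.0% (exact 95% interval 0.0506% to 10.6%). These 49 counts were most of the 54 counts of the miR-466 family. miR-466h had 0 counts of 5p and 2 of 3p. The 3p names of miR-467d, miR-467e, miR-669c, miR-669o and miR-669l also had 0 counts. Whether reads of these 3p arms fit other hairpins as well was not tested.

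The main comparison asked whether LPS changed any member within 3 h. No tested member was called higher or lower, and the intervals given below leave room for changes. Changes were tested on the counts of all miRNAs together with edgeR's quasi-likelihood test, and 6 members passed its filter on low counts, all 5p arms of 6 hairpins inside Sfmbt2. These 6 hold 95.5% of the members' counts. The other 74 members, 10 of them with counts, were not tested. Of the 6, 0 were higher and 0 lower at a Benjamini-Hochberg adjusted p below 0.05, where 5.04% of all 357 tested miRNAs passed, 3.64% as higher and 1.40% as lower. At an unadjusted p below 0.05 it was again 0 of 6 (11.8% of all tested miRNAs), DESeq2 and limma-voom called 0, and in 0 of 6 did the LPS libraries lie wholly outside the controls (16.0% of all). With 6 members, these shares of all miRNAs would correspond to few or no members, so the counts do not set the families apart.

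All 6 intervals of the log2 fold change included 0. The log2 fold changes of LPS over control ranged from -0.14 to 0.38, 4 above and 2 below 0, with a median of 0.07 where all tested miRNAs had 0.01. miR-467c-5p was measured most tightly, with control libraries at 26.2 ± 1.2 CPM and LPS libraries at 27.7 ± 3.08 CPM (SD, n = 3). Its log2 fold change was 0.08 (SE 0.17, edgeR adjusted p = 0.947). Its 95% interval of -0.31 to 0.46 leaves room for a ratio of 0.809 to 1.37. For miR-467d-5p the log2 fold change was -0.05 (SE 0.22) and for miR-467e-5p it was 0.11 (SE 0.21), with ratios of 0.688 to 1.36 and 0.774 to 1.5 inside their intervals.

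In the miR-669 family the intervals were wider. miR-669o-5p had the largest estimate, from 4.81 ± 1.02 to 6.19 ± 1.83 CPM (SD, n = 3), a log2 fold change of 0.38 (SE 0.30, 95% interval -0.30 to 1.06, edgeR adjusted p = 0.856). LPS replicates 2 and 3 were above all controls and LPS replicate 1 was among them. miR-669c-5p had -0.14 (SE 0.25, interval -0.70 to 0.43) and miR-669l-5p 0.06 (SE 0.41, interval -0.85 to 0.97). A change of miR-669l-5p to a ratio of 0.556 or 1.96 therefore lay within its interval. The adjusted p-values of the 6 members ranged from 0.856 to 0.998.

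**Figure D4:**
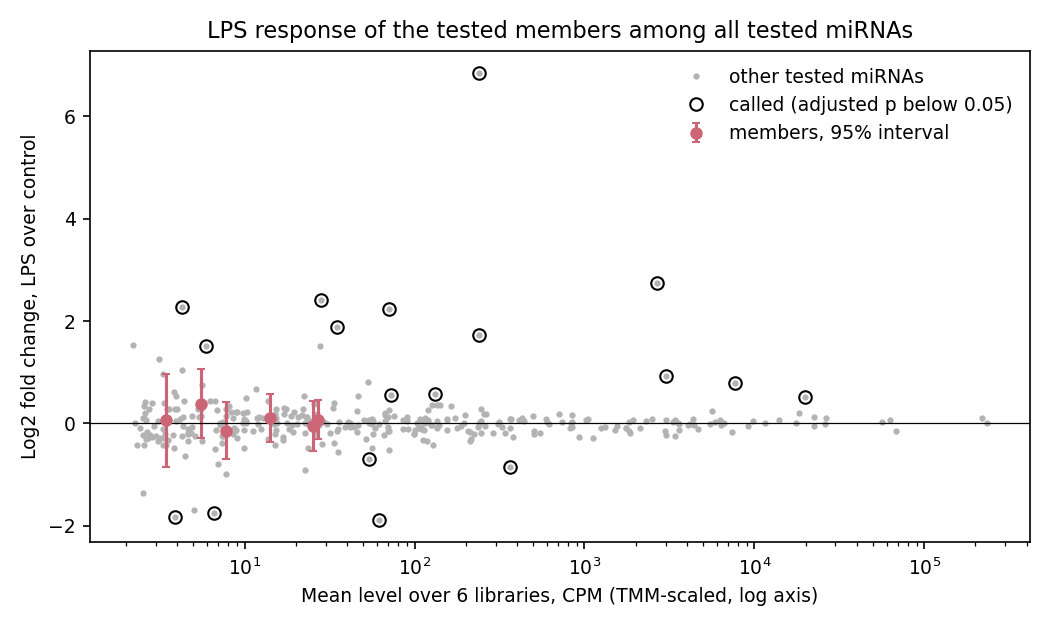
Log2 fold change of LPS over control against the mean level over 6 libraries (CPM, log axis) for all 357 tested miRNAs, with the 6 tested members in red with their 95% intervals and the 18 called miRNAs circled. The members sit at 3.47 to 26.9 CPM, below the median level of the tested miRNAs (41.8 CPM), and each of their intervals includes 0.

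The spread between libraries was set beside counting error for the 6 tested members. For miR-467c-5p the coefficient of variation was 4.60% in controls and 11.1% after LPS, where counting alone gives about 9.59% and 9.90%. For miR-669c-5p it was 18.5% and 17.9% against 17.2% and 19.1% from counting. miR-467d-5p varied more than counting gives, at 21.8% and 19.4% against 9.73% and 10.5%, and so did miR-669l-5p in controls, at 48.9% against 26.7%. miR-467e-5p in controls (18.6% against 13.3%) and miR-669o-5p after LPS (29.6% against 20.6%) were also above counting, while in their other group they were below it, at 10.4% against 13.5% and 21.2% against 22.4%. Each coefficient rests on 3 libraries and is itself uncertain, and whether any exceeds counting error was not tested. Over the 6 tested members the median SE of the log2 fold change was 0.24, and over all tested miRNAs it was 0.20.

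Other imprinted or rodent-specific groups of miRNAs gave a frame for these levels. The imprinted cluster on chromosome 12, a maternally expressed group of miRNAs between Dlk1 and Dio3, had 9 of 112 names detected and sums of 0 to 5 counts per library. A rodent cluster on the X chromosome known from testis had 3 of 38 names detected and sums of 0 to 2. At 299 to 384 counts per library, the Sfmbt2 families thus stood above both in each of the 6 libraries. Among 10 arms of other imprinted loci, 6 were detected and 2 tested, and neither passed. These arms summed to 330 to 687 counts per library in controls and 292 to 759 after LPS, which overlapped the sums of the members. Their mean sums of 131.7 CPM of the library total in controls and 129.2 after LPS were above the members' 87.4 and 86.0. miR-298-5p, from the imprinted Gnas region, had 298, 645 and 531 counts in controls and 261, 728 and 388 after LPS, more than any member in each library. The 2 tested arms were miR-298-5p (log2 fold change 0.02, SE 0.32) and miR-296-5p (0.35, SE 0.30). Of all 357 tested miRNAs, 5.04% were called. No name of the chromosome 12 and X clusters passed the filter on low counts, so a change could not be called there.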

How the data were processed

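Small RNA libraries (TruSeq Small RNA kit, from total RNA) of 3 control and 3 LPS samples were used. A further 2 samples, of chromosome conformation, were not analysed here. Each deposited table lists mature miRNAs with their raw counts, as whole numbers. Novoalign, SAMtools 0.1.19 and the builds mm10 and GRCm38.p1 are named per the submitters' processing notes. Not given in the sources used here were the counting tool, the miRNA annotation, the use of strand and the handling of reads that fit several places. Members and lists were chosen with earlier results of these data known. Counts were tested with edgeR 4.0.16 in R 4.3.3 (quasi-likelihood F test, TMM factors, filterByExpr with a minimum count of 10, group as the single term), and p-values were adjusted over all 357 tested miRNAs by the Benjamini-Hochberg method with a threshold of 0.05. Intervals of log2 fold changes use the fit's standard errors and a t distribution. DESeq2 1.42.0, limma-voom (limma 3.58.1), other scalings, filters, a replicate block and leaving out each library were alternatives. The fits were tested on simulated counts. Of the 1907 names, 1902 matched a hairpin of the RefSeq gene table (GRCm38.p6), a later patch of the notes' build. A name without a locus number was assigned to all hairpins of that name, except a locus that has its own name for that arm. Summed levels over members carry no p-value. The members named with values in every library were fixed as the 10 with the highest mean CPM plus any called or with an unadjusted p below 0.05. Wilson and exact intervals cover counting error only.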

Additional observations from a re-analysis of the deposited data

How the results depend on the processing

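Across 15 alternatives, 0 members were called in either direction by any of them, and the lowest adjusted p of a member tested in the main analysis was 0.654. The number of members tested was 16 without the filter and 3 at a count minimum of 50. Of 87 recomputed log2 fold changes of the 6 tested members, 80 kept their direction and 7 turned, all of them uncalled. miR-669l-5p turned with upper-quartile factors (-0.0013), without control replicate 2 (-0.24) and without LPS replicate 1 (-0.20), and leaving out 1 library moved it from -0.24 to 0.42. miR-467c-5p ranged from -0.05, without LPS replicate 1, to 0.15. miR-467d-5p ranged from -0.22 to 0.18 and turned without control replicate 3 (0.18) and LPS replicate 2 (0.10). miR-669c-5p ranged from -0.33 to 0.01, the latter without LPS replicate 2. Over all miRNAs, 8 were called higher with upper-quartile factors in place of 13. In place of 5 called lower, there were 8 without the filter, where every miRNA with a count was tested, and 3 at a count minimum of 50. The cause was not tested. Leaving out 1 library gave 9 to 13 higher and 2 to 6 lower, the 2 without LPS replicate 3. The replicate numbers of the labels gave correlations of same-numbered libraries' deviations of 0.025, 0.144 and -0.04, so they were not taken to pair the samples; with a replicate block 11 miRNAs were called higher and 6 lower, 0 of them members, and not every library correlated best with its own number. Without miR-467c-5p the summed level was 60.7 CPM in controls and 58.9 CPM after LPS, with a ratio of 0.97, and leaving out 1 library moved the ratio between 0.954 and 1.03. The 16 detected members became 10 with at least 3 counts in some library, 7 with at least 10, and 7 with a count in all 6 libraries. Counting members of identical mature sequence once was not run, since sequences of 8 members were in hand. The filter on low counts left 74 members untested, among them every name of miR-297 and miR-466, and the tested miR-669 arms had 7 to 38 counts per library.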

Other observations

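Names shared by several hairpins differed widely in count outside these families. All 19 of the 61 other miRNAs with 2 or more hairpins that had any count matched 2 hairpins. Chosen after its values were seen, miR-92a-3p had 81732 to 113719 counts per library and let-7f-5p 5751 to 8049, while miR-24-3p had 0 or 1 and miR-199a-3p 0 or 1. The other 42 had 0 counts in all 6 libraries. The 18 members with shared names are thus at 0 in tables where some shared names hold many counts and most hold none, and what sets these counts was not tested.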
